A study of Mus musculus with 3 samples.

Results

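Immediate early genes are transcribed within minutes of synaptic activity or growth factor signals, without new protein synthesis, and their messages are short lived. The 10 genes described here were taken by symbol from the deposited expression table: the AP-1 genes Fos, Fosb and Junb, the zinc finger genes Egr1, Egr2, Egr3 and Egr4, the orphan nuclear receptor gene Nr4a1, the neuronal transcription factor gene Npas4 and Arc, which encodes a postsynaptic protein. They are 10 of the 33101 gene names that hold a value, each with 1 row in the table. In the dentate gyrus these genes are widely used to mark granule cells that were active shortly before tissue was taken, and only a sparse set of granule cells is usually marked at a time.

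The study sequenced poly(A) RNA from dentate gyri of wild-type male mice on the C57BL/6 background, 8 to 10 weeks old, dissected from both hemispheres. The 3 libraries, labelled WT, form 1 group, and no other genotype, treatment or time was analysed here. The labels name no stimulus and do not say how the mice were handled before dissection, so a resting state was not measured as such and no induced state was available for comparison. Levels are in FPKM, fragments per kilobase of transcript scaled to the number of mapped fragments. The table gives each gene a single FPKM value that stands for the group, with no value per library. Each row also names 1 transcript, called the listed transcript here. Whether the value belongs to the whole gene or to that transcript is not settled. No standard deviation, n or test can therefore be attached to any level, and whether neighbours in an order of levels differ beyond the spread of mice is unknown.

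Markers of granule cells, the principal neurons of the dentate gyrus, were all present. The 11 genes of this list ranged from Tdo2 at 23.5 FPKM to C1ql2 at 111 FPKM. Markers of other cells were present too, but Pou3f1 of the pyramidal list and Pecam1 of the endothelial list were listed at 0. The list medians were 5.83 FPKM for 7 CA1 and CA3 pyramidal markers, 21.2 FPKM for 8 interneuron markers, 189 FPKM for 6 astrocyte markers, 23.1 FPKM for 8 microglial markers, 55.1 FPKM for 6 oligodendrocyte markers and 1.53 FPKM for 7 endothelial markers. Immediate early genes are also inducible in glia and vessel cells, and which cells carried the transcripts was not tested. In RNA from whole tissue, fewer cells with a transcript and less of it per cell cannot be told apart.

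Induction of these genes runs in part through sites near their starts. Phosphorylated CREB binds the cyclic AMP response element (CRE), and serum response factor (SRF) with its ternary complex partners binds the CArG box. RefSeq promoter windows of GRCm38.p6, from 250 bases before to 50 after a transcript start, were matched for 7 of the 10 genes. No window was matched for Egr1, Egr3 or Arc. The stretches before the start of Fos (chr12:85473640-85473889, plus strand), Junb (chr8:84978749-84978998, minus strand), Egr4 (chr6:85513590-85513839, minus strand) and Nr4a1 (chr15:101266596-101266845, plus strand) are shown because they are not covered by any exon in GENCODE M21. That of Nr4a2 (chr2:57124004-57124253, minus strand), a close relative of Nr4a1, is shown for comparison. Each is written 5′ to 3′ and ends at the base before the start. Capitals mark each CRE core, TGACG or its reverse complement CGTCA, and each TATA box, TATAAA or its reverse complement TTTATA.

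Fos: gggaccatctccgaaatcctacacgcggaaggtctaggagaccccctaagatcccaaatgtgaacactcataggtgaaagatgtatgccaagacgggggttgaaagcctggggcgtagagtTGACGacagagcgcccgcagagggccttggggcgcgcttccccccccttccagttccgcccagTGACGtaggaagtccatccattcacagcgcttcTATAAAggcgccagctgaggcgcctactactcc

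Junb: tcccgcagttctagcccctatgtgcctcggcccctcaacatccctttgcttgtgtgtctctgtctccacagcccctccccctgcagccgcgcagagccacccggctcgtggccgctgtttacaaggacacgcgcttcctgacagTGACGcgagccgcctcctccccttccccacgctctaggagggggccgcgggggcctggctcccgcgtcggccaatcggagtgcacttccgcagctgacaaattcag

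Egr4: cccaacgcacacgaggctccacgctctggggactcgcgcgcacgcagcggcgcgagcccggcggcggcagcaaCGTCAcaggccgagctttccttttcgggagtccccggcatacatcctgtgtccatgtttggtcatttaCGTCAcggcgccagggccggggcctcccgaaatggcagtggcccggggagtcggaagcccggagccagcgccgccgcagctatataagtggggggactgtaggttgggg

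Nr4a1: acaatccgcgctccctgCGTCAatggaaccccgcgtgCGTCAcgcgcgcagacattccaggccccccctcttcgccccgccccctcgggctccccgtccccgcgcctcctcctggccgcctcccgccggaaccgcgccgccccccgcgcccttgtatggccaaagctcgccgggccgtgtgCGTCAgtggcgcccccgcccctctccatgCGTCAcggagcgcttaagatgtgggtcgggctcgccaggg

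Nr4a2: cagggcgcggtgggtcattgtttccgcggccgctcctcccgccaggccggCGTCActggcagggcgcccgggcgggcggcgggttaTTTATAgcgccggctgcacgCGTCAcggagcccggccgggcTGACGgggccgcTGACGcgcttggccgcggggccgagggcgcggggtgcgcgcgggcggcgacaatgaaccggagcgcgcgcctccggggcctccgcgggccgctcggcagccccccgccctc

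A CRE core was present in a window of 7 of these 7 genes, against 20.8% of all 32851 windows of the same length. For Egr2, which has 5 annotated starts, 3 of the 5 windows held it. These 3 windows overlap and hold the same 2 cores. A gene was counted when any of its windows held the core, whereas the shares of all windows are per window. The core was present at 2 or more places for 5 of the 7, namely Fos, Egr2, Egr4, Npas4 and Nr4a1, against 5.01% of all windows. The 7 genes' windows were rich in G and C, from 56.0% to 72.3% against a median of 52.7% over all windows. Among the 11252 windows in that range of GC content, 30.7% held a core and 9.06% held it at 2 or more places. Of windows whose gene was at 1 FPKM or more in this tissue, 30.7% held a core, against 15.6% for genes under 1 FPKM.

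The 3 genes of the NR4A family shared the densest pattern. Nr4a1, Nr4a2 and Nr4a3 each held 4 cores, a number reached by 0.231% of all windows. The share was 0.515% among windows of 56.0% to 72.3% GC, a range that holds Nr4a1 and Nr4a3 but not Nr4a2, whose window had 81.7% GC. In Nr4a1 the core nearest the start began 40 bases before it, and in Fos 66 bases before it. The windows of the relatives Jun, Jund and Fosl2 held no match to a CRE core. The full palindromic CRE, TGACGTCA, the AP-1 site TGANTCA and the EGR site GCGTGGGCG, searched on both strands, had no match in the windows of the 7 genes. The full CRE contains the core on both strands. These 3 motifs were in 1.79%, 7.81% and 0.612% of all windows. A TATA box was in the windows of 2 of the 7 genes, against 13.6% of all windows. In Fos it lay 33 bases before the start, and in Junb it began at the first transcribed base. The window of Nr4a2 held one on the opposite strand, at position -164 from the start. Such matches describe letters only, and binding was not measured.

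A match to the CArG box was found only in windows of Egr2 among the 7 genes and 5 relatives with a window, whereas 1.63% of all windows held it. Egr1, Egr3 and Arc had no window, so CArG boxes near their starts were not examined. The windows of Egr2 covered 2 separate CArG boxes. They are printed with 10 bases on each side, the box in capitals, at chr10:67537484-67537513 and chr10:67537787-67537816 of GRCm38.p6, plus strand.

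Egr2, upstream box: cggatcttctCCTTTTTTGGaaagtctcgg

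Egr2, downstream box: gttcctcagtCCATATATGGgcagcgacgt

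In the windows where these boxes were first met, each began 72 bases before a start. Both are in the gene that the table lists lowest of the 10, at 0.0303 FPKM. The serum response element known from the Fos promoter lies farther upstream than this window reaches, so its absence here says nothing about Fos.

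**Figure D1:**
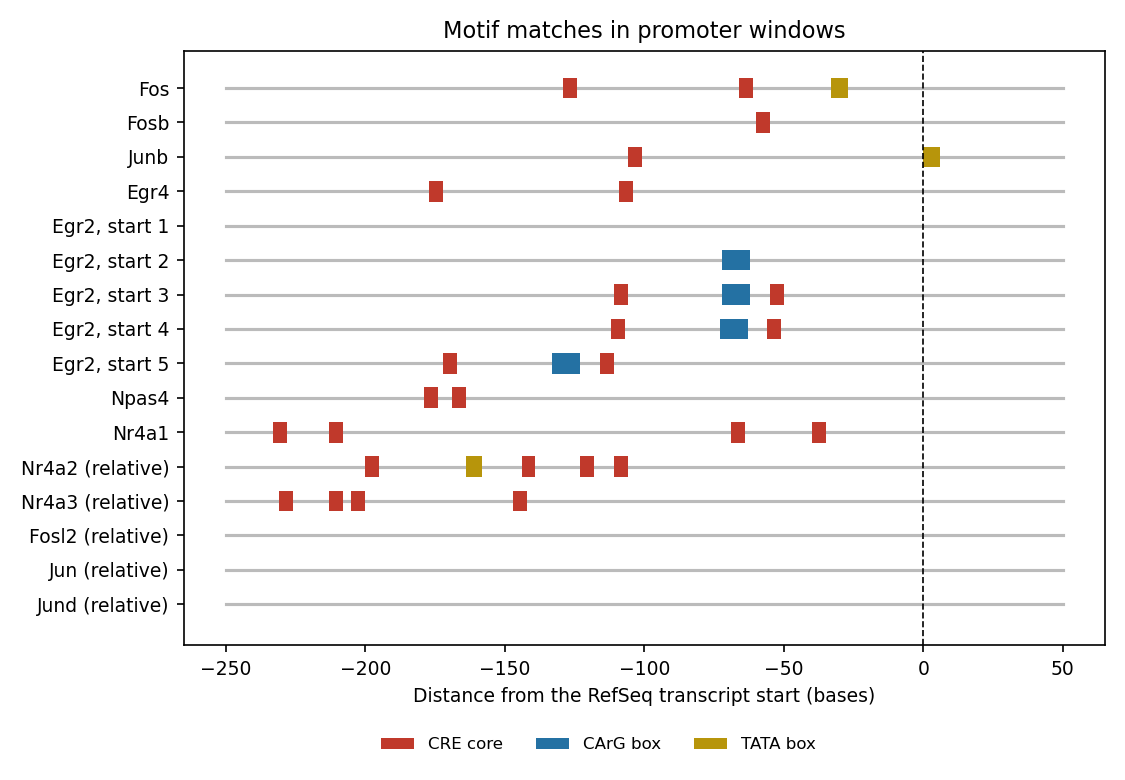
Matches to the CRE core, the CArG box and the TATA box (coloured bars, to scale) in promoter windows of 7 immediate early genes and 5 relatives, by distance from the RefSeq transcript start in bases. All 3 NR4A genes carry 4 CRE cores, and the windows of Jun, Jund and Fosl2 carry none of these motifs.

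The levels of the 10 genes were low to moderate. Egr3 was highest at 26.2 FPKM, followed by Junb at 15.8, Egr1 at 11.6, Arc at 8.28 and Egr4 at 5.22 FPKM. Below these were Nr4a1 at 3.70, Fos at 2.07, Fosb at 1.24, Npas4 at 1.09 and Egr2 at 0.0303 FPKM. The listed transcript of Egr3 has 1509 nt, while its longest coding form has 3940 nt. Whether its place in this order depends on that length was not tested. Of the 10, 9 reached 1 FPKM, a level reached by 56.4% of 20124 protein-coding names and by 39.6% of all names. Only Egr3, Junb and Egr1 reached 10 FPKM, a level reached by 30.8% of protein-coding names and 21.1% of all names. No gene of the set was listed at 0. The median of the 10 was 4.46 FPKM, against 2.45 FPKM over all protein-coding names and 11.5 FPKM over the 11341 of them at 1 FPKM or more.

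The genes of the set were not grouped at 1 level. Among all protein-coding names, Egr3 lay above 85.6%, Fos above 48.4%, Npas4 above 44.2% and Egr2 above 29.2%. Of the 10 genes, 7 were below the median of the expressed protein-coding names, and Egr1 stood almost on it. The highest value was 24.1 times that of Npas4, the ninth in order. Neighbouring values from Egr3 down to Npas4 differed by 1.14 to 1.79 times, the smallest step being that from Fosb to Npas4. The step from Npas4 to Egr2 was 35.9 times, but it rests on a value near 0 and was 2.03 times with 1 FPKM added to both genes.

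**Figure D2:**
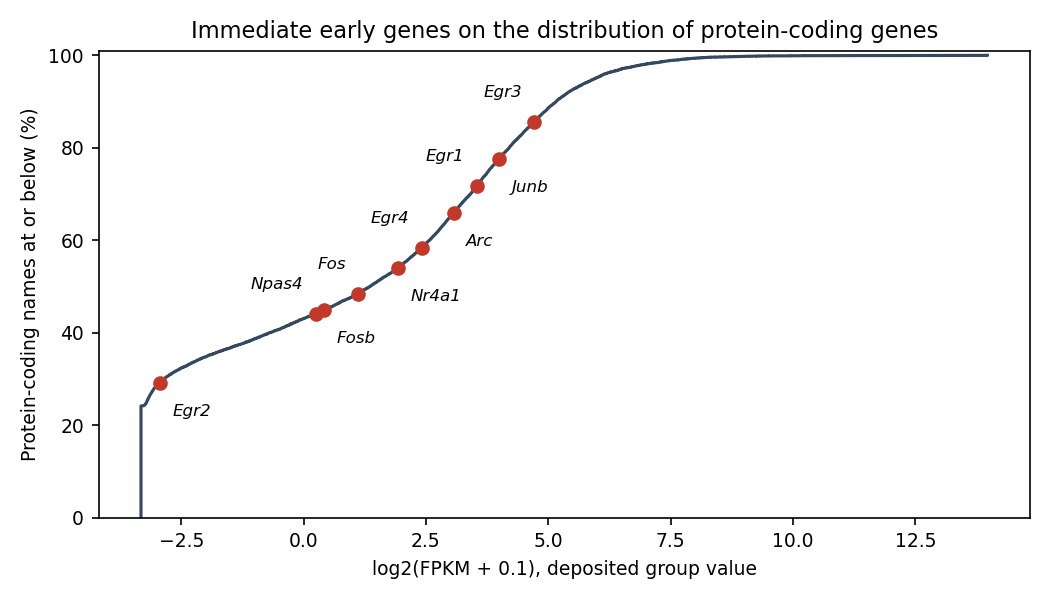
Cumulative percentage of 20124 protein-coding names by level, log2(FPKM + 0.1), with the 10 immediate early genes as red points. Egr3 is highest, above 85.6% of names, 9 genes lie between 44.2% and 85.6%, and Egr2 stands apart at 29.2%.

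Fos and Fosb encode proteins that bind DNA as dimers with a JUN protein, and both were low. Fos was at 2.07 FPKM, 1.66 times Fosb. The relative Fosl2 was higher than either, at 11.2 FPKM, which is 5.41 times Fos and 77.1% of the summed level of the 4 FOS genes. Fosl1 was at 0.0109 FPKM. The listed transcript of Fosl1 overlaps the opposite-strand gene Ccdc85b, at 12.6 FPKM, over 2783 of its 8243 bp. No step of the library protocol marks the strand, so reads of the pair cannot be told apart within that overlap.

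The JUN side of AP-1 was more abundant. Junb, the JUN gene of the set, was at 15.8 FPKM, 7.64 times Fos. It was the lowest of its family: Jun was at 78.1 FPKM, 4.95 times Junb, and Jund at 42.3 FPKM, 2.68 times Junb. The opposite-strand entry Gm11175, at 2.15 FPKM, overlaps Jund over 543 bp. Summed over the families, the 3 JUN genes reached 136 FPKM and the 4 FOS genes 14.5 FPKM, a ratio of 9.40. JUN proteins pair with each other as well as with FOS proteins, whereas FOS proteins do not form stable dimers among themselves. Jdp2, which encodes a repressor that pairs with JUN proteins, was at 24.4 FPKM, and the related genes Batf3 and Batf were at 0.987 and 0.0753 FPKM.

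The EGR genes encode zinc finger activators that bind the same GC-rich site, and the set holds all 4 of them. Egr3 was at 26.2 FPKM, 60.9% of the summed level of the 4 genes. It was 2.27 times Egr1 at 11.6 FPKM and 5.02 times Egr4 at 5.22 FPKM. Egr2, best known for its roles in hindbrain segments and in myelinating Schwann cells, was at 0.0303 FPKM, so that Egr3 was 865 times and Egr1 382 times higher. These last ratios rest on a value near 0 and fell to 26.4 and 12.2 with 1 FPKM added to both genes. Egr2 and Egr3 are also the genes of the set whose listed transcript was shorter than 50% of the longest coding form in GENCODE M21, at 773 of 2965 nt for Egr2 and 1509 of 3940 nt for Egr3. The part of these forms in the values was not tested. The corepressor genes Nab2 and Nab1, whose products bind several EGR proteins and damp their activity, were at 17.6 and 4.94 FPKM. The ratio of Nab2 to Nab1 was 3.56. Nab2 is itself a target of EGR proteins.

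Nr4a1 encodes a nuclear receptor without a known natural ligand that binds DNA alone or with a retinoid X receptor. It was at 3.70 FPKM, close to Nr4a2 at 3.98 FPKM, a ratio of 0.930, while Nr4a3 was at 6.87 FPKM, 1.86 times Nr4a1. The NR4A family was thus the most even of the 4 families, with all 3 genes between 3.70 and 6.87 FPKM. Among the receptor partners, Rxrb was at 27.2 FPKM, Rxra at 9.49 FPKM and Rxrg at 1.59 FPKM. For Rxra the listed transcript has 628 nt, while the longest coding form has 4905 nt.

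Npas4, a neuron-restricted factor induced by calcium entry and not by growth factors, was the second lowest gene of the set at 1.09 FPKM. Its protein binds DNA with ARNT partners, and these were more abundant: Arnt2 was at 28.2 FPKM, 3.47 times Arnt at 8.11 FPKM. The related clock gene Arntl was at 8.50 FPKM. The listed transcript of Arnt is a retained-intron form.

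Arc is the effector of the set that acts at the synapse, where its protein promotes the internalisation of AMPA receptors. Arc was at 8.28 FPKM, 0.717 times Egr1. It was 7.62 times Npas4, or 4.45 times with 1 FPKM added to both. Homer1 and Bdnf, other activity-induced genes with synaptic products, were above Arc. Homer1 was 2.06 times and Bdnf 2.13 times as high. The listed transcript of Homer1 has 2468 nt, while the longest coding form has 5713 nt. Homer1 makes constitutive long forms and a short induced form, which the single value of 17.0 FPKM does not separate. The median of 12 genes for partners of the Arc protein was 22.0 FPKM, and all 12 were above 5 FPKM. Camk2b was the highest at 635 FPKM, followed by the endocytic gene Dnm1 at 343 FPKM, and Cacng2, the AMPA receptor auxiliary subunit stargazin, was lowest at 6.82 FPKM. The listed transcript of Dnm1 is a nonsense-mediated decay form of 3337 nt, while the longest coding form has 4605 nt.

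**Figure D3:**
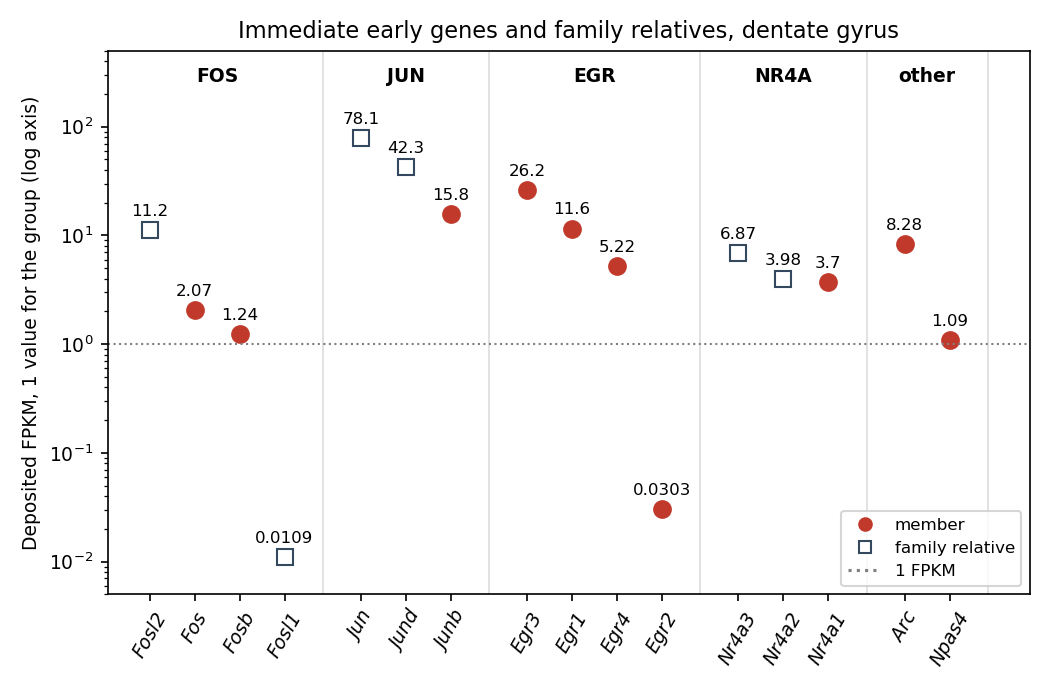
Deposited FPKM on a log axis for the 10 immediate early genes (red points) and 6 family relatives (open squares), grouped by family, with the dotted line at 1 FPKM. In the FOS, JUN and NR4A families a relative outside the set is the highest, and Egr2 and Fosl1 are the only genes below the line.

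A wider list of 46 other genes that are induced by activity in neurons or by growth factors was compared with the set. Of these, 39 reached 1 FPKM and 14 reached 10 FPKM, levels reached by 56.4% and 30.8% of protein-coding names. The median of the 46 was 3.70 FPKM, against 4.46 FPKM for the 10 genes. The difference of medians, 0.26 on the log2(FPKM + 0.1) scale, changed sign to -0.27 when list means were used, so no order between these lists is given. The highest were Nrn1, the gene of the neurite growth protein neuritin, at 206 FPKM, and Nptx1, a neuronal pentraxin gene, at 151 FPKM. Klf4 was listed at 0. Of the 46, 5 exceeded Egr3: Nrn1, Nptx1, the secretogranin gene Scg2 at 113 FPKM, the GTPase gene Rheb at 67.2 FPKM and the kinase gene Plk2 at 36.9 FPKM (the last 3 named after their values were seen).

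The lists for the machinery that induces the set each had a median above 4.46 FPKM, that of the set. The kinases that carry signals to these promoters, including ERK, RSK, MSK, CaMK and PKA genes, reached 1 FPKM in 15 of 15 cases. Of all protein-coding names, 56.4% did. The median of the kinases was 76.5 FPKM. Camk2a at 1205 FPKM and Camk2b at 635 FPKM were highest, and Rps6ka3, an RSK gene, lowest at 3.98 FPKM. For the 6 genes of SRF and its partners the median was 11.5 FPKM, with Mkl2, an actin-regulated coactivator, at 60.4 FPKM, the ternary complex factor gene Elk1 at 51.9 FPKM and Mkl1 lowest at 2.04 FPKM.

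For the 10 genes of the CREB family and its coactivators the median was 8.41 FPKM. The coactivator gene Crtc1 was highest at 67.2 FPKM, with a retained-intron form as its listed transcript, and Atf4 followed at 50.1 FPKM. Creb1 itself was lowest at 0.730 FPKM, with a listed transcript of 1287 nt against 8364 nt for the longest coding form. Among the MEF2 genes, whose proteins act at activity-regulated enhancers, Mef2d was at 77.5 FPKM, Mef2a at 43.8 FPKM and Mef2b lowest at 0.0109 FPKM.

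The set was also set against transcription factors that forebrain neurons express steadily. Of 18 such genes, 16 lay above the median of the 10 immediate early genes and 12 lay above Egr3. Their median was 34.3 FPKM, and the set minus this list was -2.91 on the log2(FPKM + 0.1) scale, a gap that depends on which genes each list holds. Zfp238, now named Zbtb18, was highest at 160 FPKM and Nfix second at 82.6 FPKM, and the chromatin organiser gene Satb1 was lowest at 0.0932 FPKM.

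**Figure D4:**
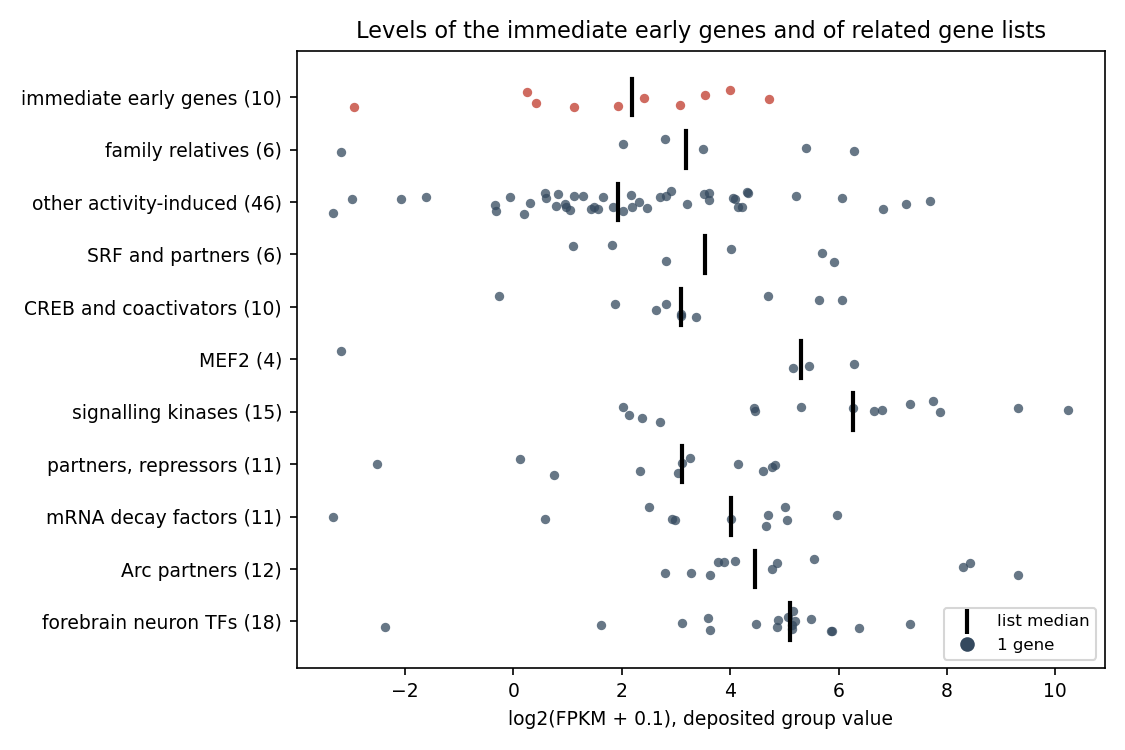
Levels as log2(FPKM + 0.1) for the 10 immediate early genes (red) and 10 related gene lists (dark points, 1 per gene), with the number of genes in brackets and a black bar at each list median. The immediate early genes centre at 4.46 FPKM, next to the other activity-induced genes at 3.70 FPKM, and the signalling kinases centre at 76.5 FPKM.

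Short-lived messages often carry AU-rich elements in the 3′ untranslated region, which decay proteins such as tristetraprolin bind. The longest coding transcript of each gene in GENCODE M21 was searched for the pentamer ATTTA and the nonamer TTATTTATT, on the transcript strand. The nonamer contains the pentamer. The pentamer was present in 8 of the 10 genes, with Arc and Egr4 as the exceptions, against 77.2% of the 10139 coding genes with a region of 485 to 2645 nt, the range of the 10. The median density was 2.07 pentamers per kb for the 10 genes and 1.497 for those in that length range. The highest densities were in Nr4a1, at 5.52 per kb, Fos, at 4.91 per kb, and Junb, at 4.12 per kb. They lay above 94.2%, 92.3% and 88.5% of all 19623 coding genes with a 3′ region, of any length. These densities rest on 3, 4 and 2 pentamers, in regions of 543, 815 and 485 nt.

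The nonamer was present in 1 of the 10 genes, Fos, and in 7.39% of coding genes in the length range. It began 655 bases after the stop codon of Fos and is printed with its neighbouring bases, the nonamer in capitals.

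Fos, AU-rich site: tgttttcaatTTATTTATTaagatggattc

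Zfp36, the tristetraprolin gene and an activity-induced gene itself, was at 1.40 FPKM. Of the 11 genes for proteins that bind such elements, 10 reached 1 FPKM, against 56.4% of protein-coding names. The median of the 11 was 16.1 FPKM. Hnrnpd was highest at 62.6 FPKM, followed by Elavl3, a neuronal stabilising factor, at 33.1 FPKM, and Elavl4 was listed at 0.

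The genes of the set are compact. Their listed transcripts spanned 1807 bp, for Junb, to 7947 bp, for Nr4a1, with a median of 3619 bp. The median span of the 11341 protein-coding names at 1 FPKM or more was 22238 bp, and 22.6% of them were as short as Nr4a1 or shorter. In these listed forms, Junb has a single exon, Egr4 has 2, and Egr1, Egr3 and Arc have 3. Fos, Fosb and Egr2 have 4 in theirs, Nr4a1 has 7 and Npas4 has 8. Other forms of a gene can differ in exon number.

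In the mm9 coordinates of the table, Fos lies at 86814840 to 86818223 on chromosome 12, Fosb at 19888070 to 19895394 on chromosome 7 and Junb at 87500811 to 87502617 on chromosome 8. Egr1 lies at 35020861 to 35024610 on chromosome 18, Egr2 at 66998223 to 67002994 on chromosome 10, Egr3 at 70477252 to 70479964 on chromosome 14 and Egr4 at 85461125 to 85463583 on chromosome 6. Arc, at 74499513 to 74503000, and Nr4a1, at 101097277 to 101105223, share chromosome 15, and Npas4 lies at 4984355 to 4989971 on chromosome 19. The genes are therefore dispersed over 9 chromosomes.

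Overlapping genes and close copies were looked for, since they could share reads with the set. Of the 10, only Egr1 overlapped another entry of the table, the opposite-strand gene Gm17507, over 172 bp, and that entry was listed at 0. No transcript of another gene matched Junb, Egr1, Egr2, Egr4, Arc, Npas4 or Nr4a1 at 95% identity or more, and the longest such matches of Fos, Fosb and Egr3 were 30, 41 and 37 nt.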

How the data were processed

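Per the labels' protocols, poly(A) RNA of micro-dissected dentate gyri was fragmented, reverse transcribed from random primers and read on a HiSeq2000 instrument. Per the submitters' processing notes, TopHat and Cufflinks were used with mm9 and NCBIM37. No version of either tool, and no read length, was found in the labels. FPKM values were deposited by the authors, 1 per row for the whole wild-type group (37681 rows, 36469 with a value). Whether that value comes from pooled reads or an average is not given, and the depth is unknown, since these values are estimates from which whole reads were not recovered.

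Rows that share a symbol were summed. Log2 values use a pseudocount of 0.1 FPKM, which understates differences of low genes. No test or p-value could be computed from 1 column; the planned tests per library were not run. Gene types, exons, transcript lengths and 3′ regions came from GENCODE M21 by Ensembl identifier, found for 86.7% of rows. Promoter windows came from RefSeq (GRCm38.p6) by symbol. The motif search was tested on simulated sequences. Transcript matches used blastn 2.17.0. The members and the gene lists were chosen with earlier results of these data known. The rule for names took all 10 genes, all relatives, the genes of the fixed pairs and the 2 highest and the lowest of each list. Marker lists other than that of granule cells are given by their medians, with genes listed at 0 named. Jdp2, Batf3, Rxra, Rxrg, Arntl, Zfp36, Scg2, Rheb and Plk2 are named outside it, with their values known. Genes most alike in pattern could not be sought in 1 value. Alternatives changed the pseudocount, the minimum, the list summary, the genes included and the background of names. The tools were pandas 2.3.3, numpy 2.4.6 and matplotlib 3.10.9 under Python 3.11.15.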

Additional observations from a re-analysis of the deposited data

How the results depend on the processing

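A level or ratio was counted as moved when it changed by more than 1.5 times, a log2 difference when it shifted by as much, and a percentile when it shifted by more than 10 points. No library could be left out, because the table holds 1 value for the group, and the cause of the changes below was not tested unless named. No paired analysis was possible because the only group has no second group to pair with. Of 157 alternative values, 125 stayed within these limits, 30 moved and 2 reversed. The 125 include all 10 levels under settings that could not move them, which therefore do not check the levels. Each of the 10 genes has 1 row, so keeping the highest row of a shared symbol left the value unchanged. Rescaling without the mitochondrial chromosome multiplied every level by 1.23, below the limit of 1.5. With a minimum of 5 FPKM the count of genes reached fell from 9 to 5. The median of the set was 2.88 FPKM without the EGR genes, and 5.22 FPKM without Egr2 alone, a setting chosen after the data were seen. With list means, the difference from the other activity-induced genes went from 0.26 to -0.27. That from CA1 and CA3 markers went from -0.38 to 0.29. These are the 2 reversed values. The difference from MEF2 genes went from -3.13 to -1.58 and that from Arc partners from -2.28 to -3.37. With 0.1 and 1 FPKM added, the ratio of Fosl2 to Fosl1 was 102 and 12.0, of Egr1 to Egr2 89.5 and 12.2, and of Egr3 to Egr2 202 and 26.4. The ratio of Npas4 to Egr2, a setting added after the data were seen, was 9.11 and 2.03, and with 1 FPKM added that of Arc to Npas4 was 4.45. Percentiles depend on the names counted by construction. Among names at 0.1 FPKM or more they were 79.4 for Egr3, 68.7 for Junb, 61.0 for Egr1, 52.9 for Arc, 42.6 for Egr4, 36.4 for Nr4a1, 28.0 for Fos, 22.4 for Fosb, 20.9 for Npas4 and 0 for Egr2. Among protein-coding names they were 65.9 for Arc, 58.4 for Egr4, 54.0 for Nr4a1, 48.4 for Fos, 45.0 for Fosb, 44.2 for Npas4 and 29.2 for Egr2, against 76.7, 71.6, 68.6, 64.4, 61.6, 60.9 and 46.3 among all names.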
